A study of Mus musculus with 6 samples.

Results

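Glucose, amino acids and monocarboxylates such as lactate cross cell membranes through carriers of the solute carrier (SLC) superfamily, and 7 of its gene families were examined here in ribosome-bound RNA of mouse skeletal muscle. The members were all rows whose gene symbol begins with Slc1a, Slc2a, Slc3a, Slc6a, Slc7a, Slc16a or Slc38a followed by a digit. These were 83 of the 24062 genes listed. Of these, 3 carry a family name without being a transporter gene, namely Slc7a6os, a protein-coding gene beside Slc7a6 on the other strand, the antisense RNA Slc6a19os and the pseudogene Slc2a4rg-ps.

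The study used translating ribosome affinity purification and sequencing (TRAPseq), in which ribosomes that carry a GFP-tagged protein L10a are pulled down with an anti-GFP antibody together with the RNA they hold. The mice, called GFP-L10aEC, carry at ROSA26 a construct labelled CAG-EGFP/Rpl10a; birA with a floxed stop, on a strain labelled B6.129S4, and make the tagged protein where VECad-Cre, driven by an endothelial promoter, has removed the stop. All mice were ovariectomized females in the study's methods, which place the start of work on females at 6 weeks of age, while the labels give an age of 4 weeks. Both groups received pellets for 4 weeks, placebo in the 3 vehicle libraries and 17β-estradiol (E2) in the 3 E2 libraries, and RNA came from gastrocnemius and soleus. The titles name 2 mouse numbers for every library without saying whether RNA was pooled, and p-values measure the spread between these libraries.

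Facilitative glucose transporters of the Slc2a family carry glucose down its gradient. Slc2a4 (GLUT4) is the insulin-responsive form of muscle fibers and adipocytes, whereas Slc2a1 (GLUT1) is the widespread basal form and is well known from the endothelium of the brain. The Slc7a light chains such as Slc7a5 (LAT1, for large neutral amino acids such as leucine) reach the cell surface joined to a heavy chain, Slc3a2 (4F2hc or CD98) or, in kidney and gut, Slc3a1 (rBAT). Slc38a carriers take up glutamine and other small neutral amino acids with sodium, Slc1a carriers take up glutamate or small neutral amino acids, Slc6a carriers take up neurotransmitters, taurine, creatine and amino acids, and the Slc16a family holds the monocarboxylate carriers (MCT).

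Total counts per library ranged from 84823 to 451034, and between 93 and 422 of them fell on the 83 members. Values are given as counts or as CPM, a count scaled by the total of its library, and 1 count was worth between 2.22 CPM in vehicle replicate 2 and 11.8 CPM in vehicle replicate 3. Vehicle replicate 3, the shallowest library, stood apart from the other vehicle libraries, with a Pearson's r of 0.569 and 0.575 with these and of 0.949 between these across the genes tested, which are not independent replicates. Its r with the E2 libraries was higher, from 0.676 to 0.768, while that of vehicle replicates 1 and 2 with the E2 libraries was 0.606 to 0.665. Counts on 4 Y-linked genes were present in vehicle replicates 1 and 2 and absent from the other 4 libraries, against the description of all mice as female. The 16 muscle fiber markers were all present and summed to between 73295 and 110529 CPM, whereas the 15 endothelial markers, also all present, summed to between 143 and 938 CPM. By Q-RT-PCR the paper reports endothelial genes as enriched in such pulled-down RNA over whole muscle, and myocyte genes as not enriched. No library of whole-muscle RNA was included here, so enrichment could not be judged from these sums. The part of RNA from cells without the tagged protein was not tested. In such RNA, fewer cells of a type and less RNA per cell cannot be told apart.

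Estrogen receptors bind DNA at estrogen response elements, and promoter sequence was searched for such letters. RefSeq (GRCm38.p6, the assembly of mm10) gave a promoter for 59 of the 83 members. Letters were searched on both strands in the 247 bases that end 4 bases before the start. Slc3a2 and Slc38a2 are shown because they were the 2 transporters tested with an unadjusted p of 0.05 or less, a choice made after the results were seen. Slc2a4 and Slc7a5 had no promoter in RefSeq, and Slc2a1 had no exon-free stretch long enough to print. The bases after the start were found in a GENCODE transcript of the gene for Slc38a2 but not for Slc3a2. For Slc3a2 the RefSeq start lies inside the gene as GENCODE annotates it, 169 of the 247 bases are annotated exon, and only the exon-free stretch next to that start is printed, on the minus strand of chromosome 19 from 8713901 to 8713960, and for Slc38a2 the whole window on the minus strand of chromosome 15 from 96699732 to 96699978. Capitals mark GGTCA, the core of an estrogen response element, and the GC box GGGCGG, each on either strand.
Slc3a2: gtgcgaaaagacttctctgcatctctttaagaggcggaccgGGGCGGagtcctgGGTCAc
Slc38a2: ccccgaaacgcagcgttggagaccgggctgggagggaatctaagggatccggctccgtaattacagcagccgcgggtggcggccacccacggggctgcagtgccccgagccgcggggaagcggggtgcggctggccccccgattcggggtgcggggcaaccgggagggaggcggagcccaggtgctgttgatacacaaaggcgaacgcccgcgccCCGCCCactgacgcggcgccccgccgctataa

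The Slc3a2 stretch held 1 GGTCA and 1 GC box, and its whole window held 3 GGTCA. The Slc38a2 window held 1 GC box and no GGTCA. The GGTCA core occurred in 22 of the 59 member windows (37.3%) and in 34.5% of all 27025 windows. The GC box was found in 33 of the 59 (55.9%) and in 32.5% of all. The full element GGTCANNNTGACC, which contains the core at both ends, was in 0 of the 59 and in 0.0629% of all, and the amino acid response element core TGATGNAA, a target of the stress factor ATF4, was in 3.39% and 3.51%. These are matches of letters and say nothing of binding.

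Of the 83 members, 57 (68.7%) had a count in any library, as did 58.4% of all genes, and 26 had none. A total of 13 members had 20 or more counts over the 6 libraries, 11 had 10 to 19 and 33 had 1 to 9. Only 8 (9.64%) passed edgeR's filter on low counts, as did 1682 (6.99%) of all genes. These were Slc6a6, Slc2a4, Slc38a2, Slc3a1, Slc7a14, Slc3a2, Slc38a9 and Slc16a6. The groups were compared in edgeR's quasi-likelihood test, and p was adjusted by Benjamini-Hochberg over the 1682 genes. Scaling by library totals alone shifted the median log2 fold change of all genes to -0.155, and fold changes are given relative to TMM scaling.

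None of the 8 transporters passed an adjusted p of 0.05, where 2.97% of all genes tested were lower and 2.5% higher with E2. With p not adjusted and 0.05 or less, Slc3a2 was higher and Slc38a2 lower, where 15.1% of all genes tested were lower and 10.5% higher. For 1 of the 8 genes, again Slc3a2, every E2 library exceeded every vehicle library, and for 1, Slc38a2, the reverse held, against 8.68% and 12.8% of all genes tested. The log2 fold change was above 0 in 7 of the 8 with a median of 0.475, and above 0 in 846 of the 1682 genes (50.3%) with a median of 0.00539. The exact permutation p of a gene (two-sided) cannot go below 0.1 with 3 libraries in each group. Exons of 4 of the 8 genes tested and of 19 of the 83 members (22.9%) share bases with a gene on the opposite strand, and for Slc6a6 (Gm44981), Slc38a9 (Gm47827), Slc38a10 (Gm11769), Slc7a2 (Gm26584) and Slc2a1 (Gm12868) that gene is not among those counted.

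**Figure D1:**
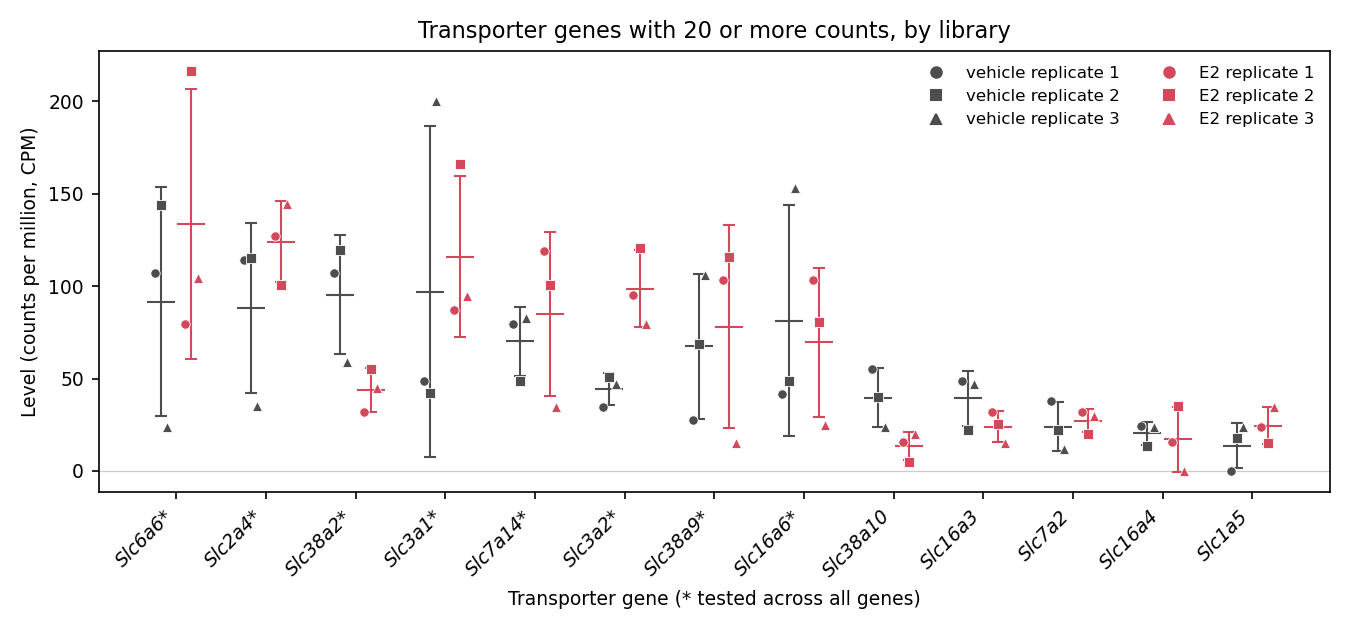
Level in CPM (y axis) of the 13 transporter genes with 20 or more counts (x axis) in each vehicle (grey) and E2 (red) library, with the mean (bar) and 1 SD (whiskers, n = 3). The E2 libraries are all above the vehicle libraries for Slc3a2 and all below them for Slc38a2 and Slc38a10, the latter with 2 counts in vehicle replicate 3, and for the other 10 genes the groups overlap.

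The heavy chain gene Slc3a2 (ENSMUSG00000010095.13) is found in mm10 on chromosome 19, minus strand, from 8706882 to 8723369. It had 10, 23 and 4 counts in vehicle replicates 1, 2 and 3 and 12, 24 and 16 counts in E2 replicates 1, 2 and 3. These were 34.6, 51.0 and 47.2 CPM with vehicle and 95.3, 121 and 79.6 CPM with E2, so that the groups did not overlap and vehicle replicate 3 lay among the other vehicle libraries. The mean was 44.3 ± 8.56 CPM with vehicle and 98.6 ± 20.8 CPM with E2 (SD, n = 3 each, exact permutation test, two-sided, p = 0.1).

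Slc3a2 had a log2 fold change of 1.28 with a standard error of 0.44 and an adjusted p of 0.0794 (unadjusted p = 0.00820) in edgeR's quasi-likelihood test. It stayed between 1.08 and 1.43 with any library left out. Leaving out vehicle replicate 3 gave an adjusted p of 0.00684 and leaving out vehicle replicate 1 one of 0.441, while it was 0.0242 in edgeR's likelihood ratio test. Against vehicle replicate 3 alone, the vehicle library without Y-linked counts, the log2 fold change was 1.14 (adjusted p = 0.699). The exact 95% Poisson interval for counting error was 12.8 to 121 CPM in vehicle replicate 3 and 49.2 to 166 CPM in E2 replicate 1, and these intervals overlapped.

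Each light chain that joins Slc3a2 had fewer counts than the heavy chain, between 0 and 15 in all. Slc7a5 (ENSMUSG00000040010.10, chromosome 8, minus strand, 121881150 to 121907694) had 1, 1 and 0 counts with vehicle and 0, 0 and 2 with E2. This is 2.43 CPM over the vehicle libraries together (95% Poisson interval 0.294 to 8.76) and 3.81 CPM over the E2 libraries (0.461 to 13.7), and a difference was not detectable at this depth. The 6 light chain genes Slc7a5, Slc7a6, Slc7a7, Slc7a8, Slc7a10 and Slc7a11 summed to 34.6, 33.3 and 35.4 CPM in vehicle replicates 1, 2 and 3 and to 31.8, 30.2 and 54.7 CPM in E2 replicates 1, 2 and 3. The sums of the groups thus overlapped.

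Among these light chains, Slc7a11 (xCT, the cystine carrier) had 0 counts in every library. Slc7a10 (Asc-1, known from brain and adipocytes) had 0, 4 and 0 counts with vehicle and 2, 6 and 3 with E2, and it shares exon bases with Lrp3 on the opposite strand, a gene of 85 counts. Slc7a8 (LAT2) had 6, 3 and 0 counts with vehicle and none with E2. A count of 0 allows up to 3 counts, or between 14.9 and 23.8 CPM in the E2 libraries, and Slc7a8 was at 20.8 and 6.65 CPM in vehicle replicates 1 and 2. Slc7a8 and Slc7a10 were named after their values were seen.

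Slc3a1 (ENSMUSG00000024131.8, chromosome 17, plus strand, 85028376 to 85064236), the heavy chain of kidney and gut, had more counts than Slc3a2 in all, 113 against 89. It had 14, 19 and 17 counts with vehicle and 11, 33 and 19 with E2, or 48.5, 42.1 and 200 CPM and 87.3, 166 and 94.5 CPM. Vehicle replicate 3 was the highest of all 6 libraries, and the other vehicle libraries were below every E2 library. Its log2 fold change of 0.67, with a standard error of 0.56 and an adjusted p of 0.475 (edgeR), became 1.63 (adjusted p = 0.00234) without vehicle replicate 3, 0.07 without vehicle replicate 2 and 0.23 without vehicle replicate 1, and -0.68 against vehicle replicate 3 alone. Its known light chain partners Slc7a9 and Slc7a13 had no counts in any library. Exons of Slc3a1 share 601 bases with Prepl on the opposite strand, which had 15 counts, so that reads from these bases cannot be told apart unless the counting used the strand.

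The glucose carrier with the most counts was Slc2a4 (ENSMUSG00000018566.14, chromosome 11, minus strand, 69942539 to 69948188), which held 86.4% of the counts of its family. It had 33, 52 and 3 counts with vehicle and 16, 20 and 29 with E2. These were 114, 115 and 35.4 CPM and 127, 101 and 144 CPM. The E2 libraries lay around vehicle replicates 1 and 2, and only vehicle replicate 3 was low.

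The mean level of Slc2a4 was 88.3 ± 45.8 CPM with vehicle and 124 ± 21.9 CPM with E2 (SD, n = 3 each, exact permutation test, two-sided, p = 0.4). A log2 fold change of 0.53 had a standard error of 0.47 and an adjusted p of 0.495 in edgeR's quasi-likelihood test. It was 0.37 without vehicle replicate 3 or without E2 replicate 3, 0.90 without E2 replicate 2 and 1.90 (adjusted p = 0.420) against vehicle replicate 3 alone. The summed muscle fiber markers were 110529, 87104 and 75604 CPM in vehicle replicates 1, 2 and 3 and 80242, 97060 and 73295 CPM in E2 replicates 1, 2 and 3. All 16 markers were tested, with a median log2 fold change of -0.328 and 5 above 0. At an unadjusted p of 0.05 or less 2 were lower and 2 higher, where 15.1% of all genes tested were lower and 10.5% higher. These had log2 fold changes of 1.35 for Tnnc2, 1.80 for Acta1, -1.08 for Myh4 and -1.19 for Tnnt3. None passed an adjusted p of 0.05 (0.0572, 0.0573, 0.148 and 0.126, edgeR). The part of muscle fiber RNA in the Slc2a4 level was not tested.

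Slc2a1 (ENSMUSG00000028645.11, chromosome 4, plus strand, 119108711 to 119137983) had 1, 1 and 0 counts with vehicle and 0, 1 and 0 with E2. Over the libraries of a group this is 2.43 CPM with vehicle (95% Poisson interval 0.294 to 8.76) and 1.90 CPM with E2 (0.0482 to 10.6). A difference between the groups was not detectable at this depth. Slc2a4 over the same libraries was at 107 CPM (85.6 to 131) with vehicle and 124 CPM (95.5 to 158) with E2. The other 11 members of the Slc2a family had 0 to 6 counts each.

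The sodium-coupled carrier Slc38a2 (SNAT2) takes up glutamine and alanine, and its abundance is known to change with amino acid supply. It was the only one of the 8 tested with a log2 fold change below 0. The gene (ENSMUSG00000022462.7) spans 96687392 to 96699730 of chromosome 15, minus strand. It had 31, 54 and 5 counts with vehicle and 4, 11 and 9 with E2, or 107, 120 and 58.9 CPM and 31.8, 55.4 and 44.8 CPM. All E2 libraries were below all vehicle libraries, but vehicle replicate 3 and E2 replicate 2 differed by less than what 1 count is worth in the former.

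The mean level of Slc38a2 was 95.3 ± 32.1 CPM with vehicle and 44.0 ± 11.8 CPM with E2 (SD, n = 3 each, exact permutation test, two-sided, p = 0.1). In edgeR's quasi-likelihood test the log2 fold change was -1.03 with a standard error of 0.46 and an adjusted p of 0.162 (unadjusted p = 0.0361). With each library left out it stayed between -1.07 and -0.79, with an adjusted p of 0.0304 without vehicle replicate 3 and up to 0.484 otherwise, and the gene was too low to be tested against vehicle replicate 3 alone. The summed endothelial markers (15 of 15 present) were 848, 938 and 259 CPM in vehicle replicates 1, 2 and 3 and 143, 373 and 677 CPM in E2 replicates 1, 2 and 3. Of these markers 3 were tested, with log2 fold changes of -2.22 for Kdr, -0.80 for Egfl7 and 0.13 for Cdh5 (adjusted p = 0.0764, 0.441 and 0.906, edgeR). Kdr had 322, 262 and 0 CPM with vehicle and 15.9, 50.4 and 49.7 CPM with E2. Cdh5 was at 373 CPM in E2 replicate 3. The adipocyte markers (8 of 8 present) summed to 329, 404 and 177 CPM with vehicle and to 71.5, 121 and 159 CPM with E2. Each E2 library was below each vehicle library in this sum and also in Fabp4 and Lpl, while the other markers overlapped. Of all genes tested, 12.8% had this order. Fabp4, also a gene of capillary endothelium, had 204, 228 and 82.5 CPM with vehicle and 15.9, 50.4 and 64.7 CPM with E2 (log2 fold change -1.81, adjusted p = 0.0499, edgeR). Lpl was not tested and had 72.7, 97.6 and 35.4 CPM with vehicle and 15.9, 5.04 and 19.9 CPM with E2. It had 3 counts in vehicle replicate 3. Cidec, the other of the 2 adipocyte markers tested, went the other way, at a log2 fold change of 1.05 (adjusted p = 0.336, edgeR). The part of either cell type in the Slc38a2 values was not tested.

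Slc38a10, a related carrier of glutamine and other amino acids, was too low to be tested in the same fit. It had 16, 18 and 2 counts with vehicle and 2, 1 and 4 with E2, which is 39.6 ± 15.9 CPM and 13.6 ± 7.69 CPM (SD, n = 3 each). Vehicle replicate 3 at 23.6 CPM and E2 replicate 3 at 19.9 CPM differed by less than 1 count in the former, so that the order of these libraries is not resolved. Without a filter on low counts its log2 fold change was -1.62 (unadjusted p = 0.0253, adjusted p = 0.372, edgeR). The lysosomal arginine sensor Slc38a9, which signals amino acid supply to mTORC1, had 27.7, 68.7 and 106 CPM with vehicle and 103, 116 and 14.9 CPM with E2. Its groups overlapped at a log2 fold change of 0.42 ± 0.58 (standard error) and an adjusted p of 0.687 (edgeR), and its log2 fold change was -0.058 without vehicle replicate 1. The remaining 8 Slc38a members had 0 to 13 counts each.

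**Figure D2:**
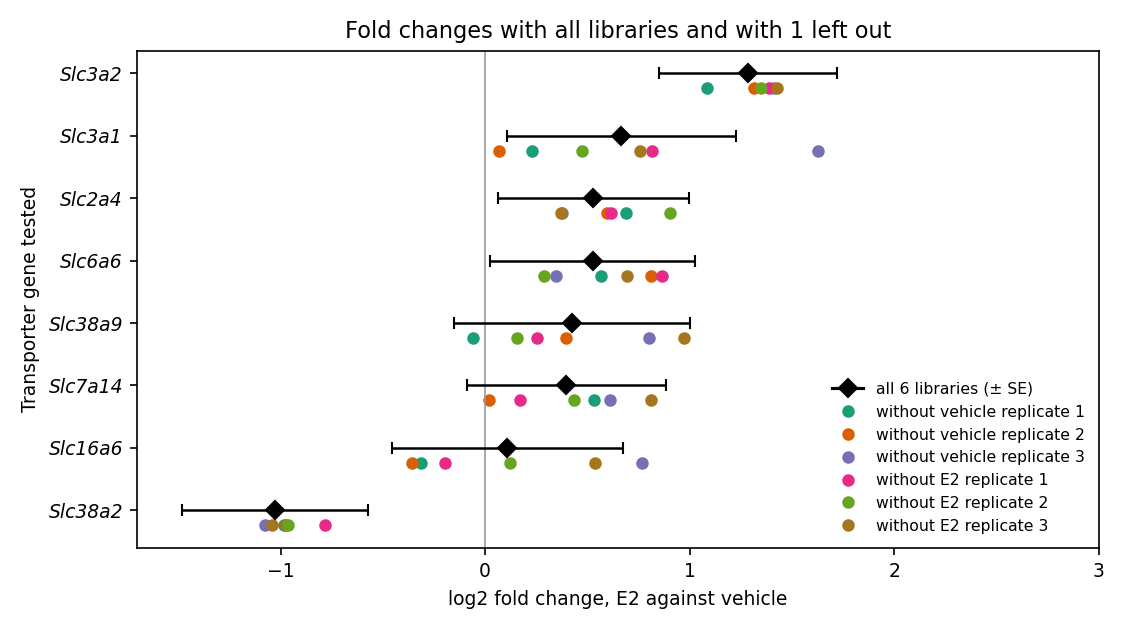
Log2 fold change of E2 against vehicle (x axis) for the 8 transporter genes tested (y axis), with all 6 libraries (diamond, whiskers 1 standard error) and with each library left out (coloured points). All points of Slc3a2 are above 1 and all points of Slc38a2 below 0, whereas those of Slc3a1 spread from 0.07 to 1.63 and those of Slc16a6 lie on both sides of 0.

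Slc6a6, the taurine carrier, had the most counts of all members, 172 in all. It had 31, 65 and 2 counts with vehicle and 10, 43 and 21 with E2, or 107, 144 and 23.6 CPM and 79.4, 217 and 104 CPM. Both groups spanned a wide range and overlapped, with the lowest value in vehicle replicate 3. The log2 fold change was 0.53 ± 0.50 (standard error) with an adjusted p of 0.536 (edgeR), 0.29 without E2 replicate 2, 0.86 without E2 replicate 1, 0.81 without vehicle replicate 2, 0.35 without vehicle replicate 3 and 2.56 (adjusted p = 0.242) against vehicle replicate 3 alone.

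The creatine carrier Slc6a8 had 0, 1 and 0 counts with vehicle and 3, 2 and 1 with E2. It was named after its values were seen, and 1 to 3 counts in a library are too few to order the groups. Slc6a6 held 79.6% of the 216 counts of the family, and 13 of the 20 Slc6a members had no count in any library.

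Slc7a14, a lysosomal relative of the cationic amino acid carriers, had 23, 22 and 7 counts with vehicle and 15, 20 and 7 with E2. In CPM this is 79.6, 48.8 and 82.5 with vehicle and 119, 101 and 34.8 with E2, and the E2 libraries lay both above and below the vehicle libraries (log2 fold change 0.40 ± 0.49, standard error, with an adjusted p of 0.653, edgeR). Its log2 fold change was 0.02 without vehicle replicate 2, 0.17 without E2 replicate 1, 0.61 without vehicle replicate 3 and 0.81 without E2 replicate 3. The arginine carrier Slc7a2 (CAT2) had 11, 10 and 1 counts with vehicle and 4, 4 and 6 with E2, or 24.0 ± 13.2 CPM and 27.3 ± 6.23 CPM (SD, n = 3). Slc7a1 (CAT1) had 2 counts in all and Slc7a3 had none, so that Slc7a2 carried nearly all counts of the cationic carriers.

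Among the monocarboxylate family, Slc16a6 (MCT7) had the most counts, with 12, 22 and 13 with vehicle and 13, 16 and 5 with E2. Its level was 41.5, 48.8 and 153 CPM with vehicle and 103, 80.6 and 24.9 CPM with E2, and vehicle replicate 3 was the highest of all libraries. A log2 fold change of 0.11 ± 0.57 (standard error), with an adjusted p of 0.920 (edgeR), changed sign with library totals, in DESeq2 and with vehicle replicate 1, vehicle replicate 2 or E2 replicate 1 left out. Exons of Slc16a6 share 1052 bases with Amz2 on the opposite strand, which had 14 counts.

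The proton-linked carriers of lactate and pyruvate had fewer counts. Slc16a3 (MCT4), the form of glycolytic muscle fibers, had 14, 10 and 4 counts with vehicle and 4, 5 and 3 with E2, or 39.3 ± 14.8 CPM and 24.0 ± 8.49 CPM (SD, n = 3), and its groups overlapped. Slc16a1 (MCT1) had 11 counts in all, Slc16a8 (MCT3) 9 and Slc16a7 (MCT2) 2. Summed, these 4 carriers were at 48.5, 48.8 and 82.5 CPM with vehicle and 39.7, 45.3 and 24.9 CPM with E2. These are 43 counts in the vehicle libraries and 19 in the E2 libraries, and vehicle replicate 1 and E2 replicate 2 differed by less than 1 count in either. Slc16a4, a member with 24 counts, was at 20.4 ± 6.13 CPM with vehicle and 17.0 ± 17.7 CPM with E2 (SD, n = 3).

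The Slc1a family was the lowest, with 39 counts in all, of which Slc1a5 (ASCT2, a glutamine carrier) held 59.0%. Slc1a5 had 0, 8 and 2 counts with vehicle and 3, 3 and 7 with E2, and the groups overlapped at 13.8 ± 12.3 CPM and 24.6 ± 9.88 CPM (SD, n = 3). The 5 high-affinity glutamate carriers had 15 counts together, 12 of them on Slc1a7.

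**Figure D3:**
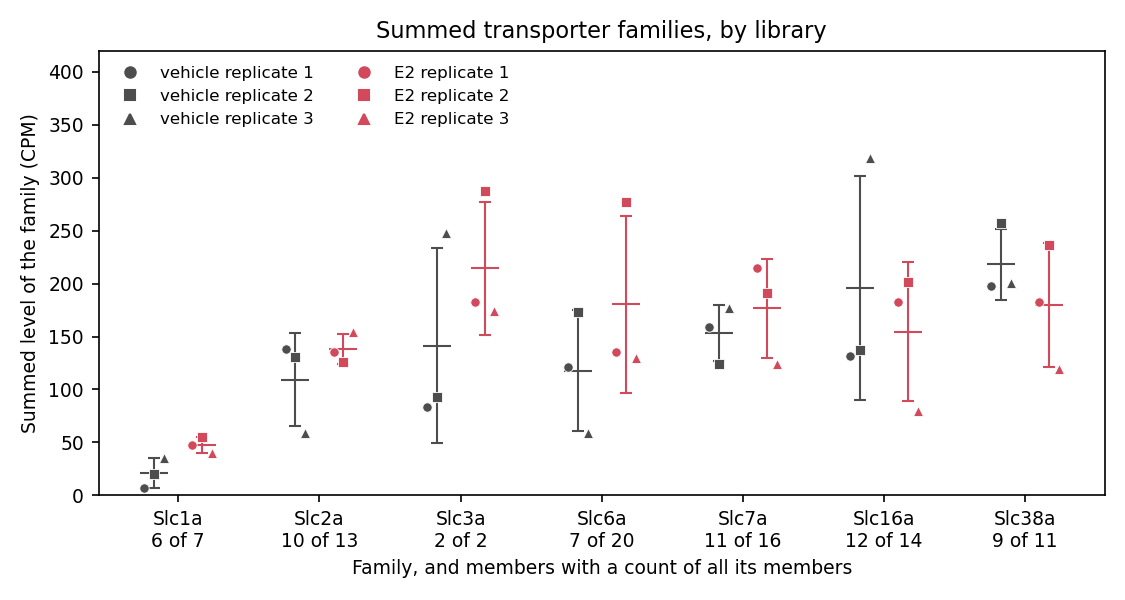
Summed level in CPM (y axis) of all members of each of the 7 families (x axis, with the number of members that had a count), by vehicle (grey) and E2 (red) library, with the mean (bar) and 1 SD (whiskers, n = 3). The E2 libraries are all above the vehicle libraries for Slc1a, by less than 1 count of vehicle replicate 3, and the groups overlap for the other 6 families.

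Summed by family, the level was 20.7 ± 14.2 CPM with vehicle and 47.6 ± 7.80 CPM with E2 for Slc1a (SD, n = 3 here and below). It was 109 ± 43.9 and 138 ± 14.5 CPM for Slc2a, and 141 ± 92.2 and 215 ± 62.9 CPM for Slc3a. For Slc6a it was 118 ± 57.1 and 180 ± 83.7 CPM, and for Slc7a 153 ± 26.8 and 177 ± 46.8 CPM. These 5 families had the higher mean with E2, whereas Slc16a with 196 ± 106 and 155 ± 65.6 CPM and Slc38a with 218 ± 33.7 and 180 ± 58.7 CPM had the lower one. Except for Slc1a, each difference moved by over 1.5 times with some library left out, and the largest shifts follow. Without vehicle replicate 3 the Slc16a mean was the higher with E2, by 20.1 CPM, the Slc2a difference shrank from 29.0 to 3.73 CPM and the Slc3a difference grew from 73.4 to 127 CPM (37.1 CPM without E2 replicate 2). The Slc6a difference shrank from 62.8 to 14.5 CPM without E2 replicate 2, and that of Slc7a from 23.3 to 4.47 CPM without E2 replicate 1. Without E2 replicate 3 the difference, E2 minus vehicle, was -8.63 CPM for Slc38a and -3.72 CPM for Slc16a. Except for Slc1a, with 14 counts in the vehicle and 25 in the E2 libraries and 3 in vehicle replicate 3, the libraries of the groups overlapped in each family. All 83 members together were between 838 and 1096 CPM in the vehicle libraries and between 821 and 1375 CPM in the E2 libraries.

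Levels of different genes were compared per length, as CPM per 1000 exon bases of GENCODE mouse release M21. Slc3a1 came first at 42.7 ± 39.5 with vehicle and 51.1 ± 19.2 with E2 (SD, n = 3), followed by Slc2a4 with 25.4 ± 13.2 and 35.7 ± 6.30. With vehicle this order rested on vehicle replicate 3, where Slc3a1 was at 88.3 and Slc2a4 at 10.2, whereas in vehicle replicates 1 and 2 Slc3a1 was the lower, at 21.3 and 18.5 against 32.8 and 33.1. Next came Slc3a2 with 12.5 ± 2.43 and 27.9 ± 5.91 CPM per 1000 bases, Slc16a6 with 16.6 ± 12.8 and 14.2 ± 8.26, and Slc6a6 with 10.8 ± 7.30 and 15.8 ± 8.64. From each of these to the next in order, the means of a group differed by less than the larger of both SDs, except between Slc2a4 and Slc3a2 and between Slc3a2 and Slc16a6 with E2. Slc7a5 and Slc2a1 came last of the 15 genes compared, with group means between 0.479 and 0.894 CPM per 1000 bases, and did not differ from each other beyond their spread.

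**Figure D4:**
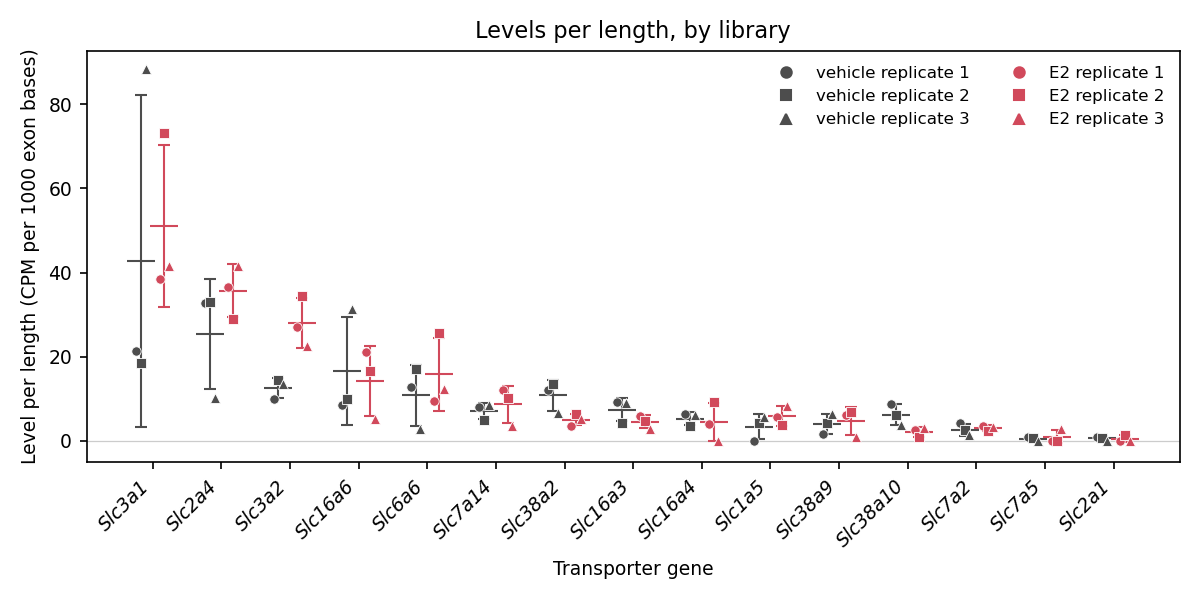
Level per length in CPM per 1000 exon bases (y axis) of the 13 transporter genes with 20 or more counts and of Slc7a5 and Slc2a1 (x axis, ordered by the sum of both group means), by library, with the mean (bar) and 1 SD (whiskers, n = 3). Slc3a1, Slc2a4 and Slc3a2 come first by the sum of both means, although Slc16a6 is above Slc3a2 with vehicle, and Slc7a5 and Slc2a1 lie between 0 and 2.68 in all libraries.

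Genes that work with these carriers were read from 4 lists, of which 11 genes were tested and none passed an adjusted p of 0.05 (edgeR). On glucose handling, 5 of the 19 genes found were tested, with a median log2 fold change of -0.103 and 2 above 0 (50.3% of all genes tested), and none had an unadjusted p of 0.05 or less (15.1% lower and 10.5% higher of all genes tested). Gys1, the muscle glycogen synthase, had 192 ± 61.9 CPM with vehicle and 162 ± 33.6 CPM with E2, and Pfkm of glycolysis 158 ± 57.5 and 155 ± 42.3 CPM (SD, n = 3). Hexokinase gene Hk2, which traps the glucose that has entered, had 201, 186 and 189 CPM with vehicle and 95.3, 126 and 104 CPM with E2. All E2 libraries of Hk2 were below all vehicle libraries, as for 12.8% of all genes tested, the log2 fold change being -0.68 ± 0.42 (standard error) and an adjusted p of 0.321 (edgeR). The other 2 tested were Txnip, an inhibitor of glucose uptake, with a log2 fold change of -0.26 (adjusted p = 0.768, edgeR) and the glycolytic Gpi1 with 1.04 (adjusted p = 0.253, edgeR).

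On amino acid sensing and the ATF4 program, 2 of the 26 genes were tested, of which 1, Rragd, was higher at an unadjusted p of 0.05 or less (10.5% of all genes tested), both with a log2 fold change above 0, as for 50.3% of all genes tested, and both with every E2 library above every vehicle library, as for 8.68%. Rragd, a Rag GTPase that recruits mTORC1 to the lysosome, had 232, 315 and 189 CPM with vehicle and 365, 786 and 542 CPM with E2 (log2 fold change 1.31 ± 0.45, standard error, with an adjusted p of 0.0833, edgeR). Ddit3 (CHOP), of the stress response, had 38.1, 44.3 and 35.4 CPM with vehicle and 87.3, 60.4 and 64.7 CPM with E2 (log2 fold change 0.92 ± 0.48, standard error, with an adjusted p of 0.226, edgeR). Sesn1, an amino acid sensor with 64 counts, was not tested, and was at 55.1 ± 18.1 CPM with vehicle and 23.9 ± 12.0 CPM with E2 (SD, n = 3), with 3 counts in vehicle replicate 3 and 2 to 6 in the E2 libraries.

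On monocarboxylate handling, both genes tested overlapped between the groups. Bsg (basigin), the chaperone of Slc16a1 and Slc16a3, had 283 ± 113 CPM with vehicle and 298 ± 26.0 CPM with E2 (log2 fold change 0.18 ± 0.45, standard error, with an adjusted p of 0.829, edgeR). Ldha, which makes lactate, had 306 ± 62.0 and 294 ± 76.8 CPM (log2 fold change 0.07, adjusted p = 0.935, edgeR). Pdha1 had 28 counts and was not tested.

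Of the partners and trafficking genes, Itgb1, the integrin chain that binds Slc3a2, had 222, 324 and 82.5 CPM with vehicle and 55.6, 121 and 124 CPM with E2, and the groups overlapped (log2 fold change -0.94 ± 0.50, standard error, with an adjusted p of 0.24, edgeR). Nedd4, a ubiquitin ligase, had 190, 186 and 189 CPM with vehicle and 39.7, 141 and 124 CPM with E2, without overlap, as were 12.8% of the 1682 genes (log2 fold change -0.71 ± 0.47, standard error, with an adjusted p of 0.354, edgeR). Sgk1, a kinase that raises many carriers at the cell surface, had 46 counts and was not tested, and was at 42.3 ± 6.06 CPM with vehicle and 17.0 ± 2.57 CPM with E2 (SD, n = 3), with 3 counts in vehicle replicate 3 and 2 to 4 in the E2 libraries.

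The remaining marker lists were read in the same libraries. Smooth muscle and pericyte markers (8 of 8 present) summed to between 472 and 796 CPM with vehicle and between 318 and 493 CPM with E2, and fibroblast markers (6 of 6) to between 554 and 648 and between 517 and 596 CPM. Immune markers (6 of the 6 found) were between 38.1 and 189 CPM with vehicle and between 39.7 and 104 CPM with E2. Red blood cell markers (5 of 7 present, Hbb-bs and Hbb-b1 at 0) were between 7.94 and 75.6 CPM over all libraries, and nerve markers (3 of 6, with Snap25, Syt1 and Nefl at 0) between 14.9 and 77.6 CPM. Their part in the transporter values was not tested.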

How the data were processed

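The submitters' processing notes name bcl2fastq (2.17), FastQC (0.11.2), STAR (2.5.3a), the build mm10 and featureCounts of Subread (1.6.0). The authors deposited raw counts per gene symbol for 6 libraries. The labels give a stranded SMARTer kit and the study's methods a ribosome profiling kit (ARTseq/TruSeq), and whether counting used the strand was not stated. Exon bases shared with an opposite-strand gene (50 or more in GENCODE M21) are given for the main genes named.

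Groups and replicate numbers follow the sample titles. E2 was compared with vehicle with edgeR (4.0.16, R 4.3.3), using filterByExpr, TMM scaling and the quasi-likelihood test across all genes, with Benjamini-Hochberg adjustment. Standard errors of log2 fold changes were worked back from each fold change and its test statistic. The code was tested on simulated counts. CPM use all counts of a library, which included between 28.5% and 42.9% from the ribosomal RNA gene Rn45s. Counts of 0 allow up to 3 counts. Every pair of replicates differed by more than sampling noise (chi-square per degree of freedom 2.89 or more). Intervals cover counting error only.

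Named genes are Slc2a4, Slc2a1, Slc3a2 and Slc7a5, all transporters tested, those with 20 or more counts, the leading member of each family, and of each pathway list the genes tested and the 3 with the most counts. The 4 pathway lists concern glucose handling, amino acid sensing, monocarboxylate handling and transporter partners, and the 8 marker lists concern endothelial, muscle fiber, adipocyte, smooth muscle and pericyte, fibroblast, immune, red blood cell and nerve cells. Members, lists and tests were chosen with earlier results of these data known, and groups of carriers by partner or substrate were formed after the counts were seen. Alternatives were no filter, a minimum of 10 counts in each library, scaling by RLE or by library totals, the likelihood ratio test, DESeq2 (1.42.0), limma-voom (3.58.1), a replicate block, Rn45s left out, each library left out and, added later, vehicle replicate 3 alone.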

Additional observations from a re-analysis of the deposited data

How the results depend on the processing

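Slc3a2 stayed higher and Slc38a2 lower with E2 in each alternative in which they were tested. Genes lower at the adjusted threshold numbered 50, and 132 with no filter, 0 with 10 counts in each library, 90 with library totals, 152 in the likelihood ratio test, 9 in limma-voom and 1 against vehicle replicate 3 alone. Those higher numbered 42, and 11 with 10 counts in each library, 105 in the likelihood ratio test and 6 against vehicle replicate 3 alone. At an unadjusted p of 0.05 or less 254 were lower, and 957 with no filter, 89 with 10 counts in each library and 55 against vehicle replicate 3 alone, while 177 were higher, and 459 with no filter and 69 with 10 counts in each library. With 1 library left out these counts ranged from 2 to 526, 6 to 477, 159 to 597 and 98 to 560, in that order, the highest each without vehicle replicate 3, and at the adjusted threshold any other library left out gave 2 to 11 lower and 6 to 15 higher. More genes entered with no filter, 14057, and fewer with 10 counts in each library, 578, of which Slc3a1 was the only transporter. Otherwise the cause was not tested.

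Of the transporters, 0 were lower or higher at the adjusted threshold, but 1 was higher in the likelihood ratio test, and with 1 library left out 0 to 1 were lower and 0 to 2 higher, the highest values without vehicle replicate 3, where 526 and 477 of all 2162 genes tested were called. At the unadjusted threshold 1 was lower, and 3 with no filter and 0 with 10 counts in each library, in DESeq2, in limma-voom and against vehicle replicate 3 alone. Likewise 1 was higher, and 4 with no filter (7 of 57 in both directions, where 10.1% of all genes had such a p), 0 with 10 counts in each library, 2 in limma-voom and 2 against vehicle replicate 3 alone. With 1 library left out these were 0 to 1 and 0 to 2. Of the pathway lists 0 genes were called at the adjusted threshold, 1 was higher in the likelihood ratio test, and 0 to 2 were lower and 0 to 2 higher with 1 library left out, again the most without vehicle replicate 3. Without Rn45s the difference of the summed level was 44.1 CPM for Slc1a, 63.4 for Slc2a, 126 for Slc3a, 109 for Slc6a and 52.7 for Slc7a, each over 1.5 times that with it. The Slc38a difference was -38.7 CPM with Rn45s, -37.1 CPM without it and -24.1 CPM with TMM-scaled library sizes. Smaller totals raise every CPM value, and the share of Rn45s also differed between libraries, from 28.5% to 42.9%. The part of each in these shifts was not tested.

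The log2 fold change of Slc16a6 was -0.043 with library totals and -0.040 in DESeq2, -0.36 to -0.20 without vehicle replicate 1, vehicle replicate 2 or E2 replicate 1 (-0.31 in the first), up to 0.77 without vehicle replicate 3, and -1.11 against vehicle replicate 3 alone. Slc38a9 ranged from -0.058 without vehicle replicate 1 to 0.97 without E2 replicate 3 and was at -0.42 against vehicle replicate 3 alone, and Slc3a1 at -0.68 in the latter. That comparison was chosen after seeing the data and leaves vehicle with 1 library, assumed to vary like the E2 group.

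Same-numbered libraries did not deviate together (r = -0.127, 0.0161 and -0.189 for replicates 1, 2 and 3), and the samples were not treated as paired. The labels do not say whether a number is shared, and 3 libraries in each group are too few to exclude a pairing. With a replicate block, 1 gene was lower and 7 higher at the adjusted threshold, and 0 transporters were lower at the unadjusted one. The block left Slc3a2 at 1.29 and Slc38a2 at -0.98.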
